A study of Mus musculus with 10 samples.

Results

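A set of 10 genes of interleukin-1, TNF and toll-like receptor signalling was followed in mouse trigeminal ganglion, where the cell bodies of facial sensory neurons lie among glia. The genes were taken by symbol as 10 of 26411 genes in the table of a surgery experiment and 10 of 55886 in that of an injection experiment, and all 10 had a mean of at least 0.5 FPKM (reads scaled by gene length and depth) in both. The surgery experiment had 3 sham libraries and 3 libraries of the operation that the labels name pIONT, with ganglia taken on day 10. In the injection experiment the ganglion received PBS (2 libraries) or UCN1 (2 libraries) 6 hours before it was taken. UCN1 is urocortin 1, which belongs to the peptide family of corticotropin-releasing factor, and PBS is buffered saline. The labels state no strain, sex, age or genotype, and do not say whether a library is 1 animal or a pool, so p-values measure the spread between libraries alone, and that spread may be technical.

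The 10 genes cover the receiving end of 3 families of inflammatory signals. Interleukin-1 binds IL1R1 (Il1r1), which signals only with its accessory protein (Il1rap). Tumour necrosis factor (TNF) binds TNFR1 (Tnfrsf1a), found on most cells, and TNFR2 (Tnfrsf1b), mostly on immune, endothelial and glial cells, while the receptor FN14 (Tnfrsf12a) binds the TNF-like ligand TWEAK. TLR2 (Tlr2) and TLR4 (Tlr4) recognise microbial products and some products of damaged tissue, and CD14 (Cd14) hands such ligands to both. MYD88 (Myd88) is the adaptor that the interleukin-1 receptor and most toll-like receptors share. All of these routes can free the transcription factor NF-kB from its inhibitor IkB alpha, made from Nfkbia, which is itself a classic NF-kB target and brakes the pathway. In sensory ganglia, interleukin-1 and TNF are known to raise the excitability of nociceptors, and macrophages and satellite glia are known sources of both.

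Promoters are shown for 3 of the receptor genes called higher in every alternative analysis, for Tlr2, and for Nfkbia, the single gene called lower. RefSeq windows (build GRCm38.p6) matched 8 of the 10 genes, not Tlr4 and Cd14. Each line holds up to 250 bases before the RefSeq start, cut back to what lies outside the gene as the injection table places it. Capitals mark a match to the NF-kB motif, which reads GGG, a purine, any base, A or T, a pair of pyrimidines and CC, searched on both strands.
Il1r1, chr1:40224830-40225079, plus strand: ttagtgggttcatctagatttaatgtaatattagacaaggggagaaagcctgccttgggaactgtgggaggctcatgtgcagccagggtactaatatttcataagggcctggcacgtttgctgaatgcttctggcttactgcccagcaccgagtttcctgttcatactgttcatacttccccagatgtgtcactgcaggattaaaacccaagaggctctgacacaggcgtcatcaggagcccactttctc
Tnfrsf1b, chr4:145246871-145247120, minus strand: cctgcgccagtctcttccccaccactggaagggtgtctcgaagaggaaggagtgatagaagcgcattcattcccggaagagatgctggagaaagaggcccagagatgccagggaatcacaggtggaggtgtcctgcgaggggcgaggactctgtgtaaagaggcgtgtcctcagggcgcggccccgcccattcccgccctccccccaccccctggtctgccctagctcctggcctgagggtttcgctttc
Tnfrsf12a, chr17:23677469-23677699, minus strand: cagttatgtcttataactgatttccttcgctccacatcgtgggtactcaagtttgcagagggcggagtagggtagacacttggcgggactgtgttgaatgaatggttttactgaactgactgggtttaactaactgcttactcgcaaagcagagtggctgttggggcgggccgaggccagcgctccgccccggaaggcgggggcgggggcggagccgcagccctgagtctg
Tlr2, chr3:83841768-83841858, minus strand: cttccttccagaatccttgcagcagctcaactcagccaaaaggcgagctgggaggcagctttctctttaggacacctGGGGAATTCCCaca
Nfkbia, chr12:55492648-55492897, minus strand: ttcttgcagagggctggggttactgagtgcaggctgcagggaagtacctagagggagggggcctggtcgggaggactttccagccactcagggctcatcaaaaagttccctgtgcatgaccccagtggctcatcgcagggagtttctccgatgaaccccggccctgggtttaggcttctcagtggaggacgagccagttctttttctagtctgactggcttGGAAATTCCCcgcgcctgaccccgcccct
The Nfkbia match GGAAATTCCC lies 20 to 29 bases before the start. In Tlr2, 2 overlapping matches, GGGGAATTCC and GGGAATTCCC, cover 163 to 173 bases before it. Of the 250-base windows, 3.90% of 32817 in the genome hold this motif and 6.75% hold the AP-1 motif TGANTCA. Windows of 3 of the 8 matched genes held the NF-kB motif, the third being a window at a second start of Il1r1, and windows of 0 held the AP-1 motif. A match describes letters only, and no match says nothing about whether a factor binds.

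Each surgery library held 24.1 to 29.6 M reads in genes, as recovered from the FPKM steps, and each injection library 15.6 to 17.0 M. The 10 genes rested on 52 to 1498 reads per library in the first and 21 to 759 in the second, the lowest value in each being that of Tlr2. Neuronal markers were abundant: sums over 9 listed genes ranged from 5130 to 6284 FPKM among surgery libraries and from 6463 to 6920 among injection libraries. Genes of the pituitary, which lies beside the ganglion, were also read. Their sum was 764 FPKM in sham 1 against 80.4 and 255 in sham 2 and 3 and 117 to 132 in pIONT libraries, and 122 in both PBS libraries against 7.47 and 8.29 in the UCN1 libraries. Libraries stood apart from their groups in several marker lists. Macrophage sums were highest in sham 1 and pIONT 2. Neutrophil sums were 237 FPKM in sham 3 against 29.1 and 70.5 in sham 1 and 2, and 97.7 in pIONT 3 against 24.2 and 20.1 in pIONT 1 and 2. Red blood cell sums were 402 FPKM in sham 3 against 101 and 209, and 258 in pIONT 3 against 98.1 and 85.0.

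In sham ganglia Tnfrsf1a had the highest level of the 10, at 14.5 ± 0.812 FPKM (SD, n = 3), next to Nfkbia at 12.8 ± 1.36 and Tnfrsf12a at 7.18 ± 0.550. Myd88 and Cd14 followed at 3.34 ± 0.117 and 3.19 ± 0.969 FPKM. The remaining genes were low, with Tnfrsf1b, Il1r1 and Il1rap at 1.44, 1.37 and 1.36 FPKM, Tlr2 at 0.952 and Tlr4 at 0.721. Library ranges overlapped between Tnfrsf1a and Nfkbia, between Myd88 and Cd14, and between each neighbouring pair from Tnfrsf1b down to Tlr4, so the order within those stretches is not resolved. In pIONT ganglia Tnfrsf12a passed Nfkbia in the mean, at 12.3 ± 2.26 against 10.3 ± 0.324 FPKM, with overlapping libraries.

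**Figure D1:**
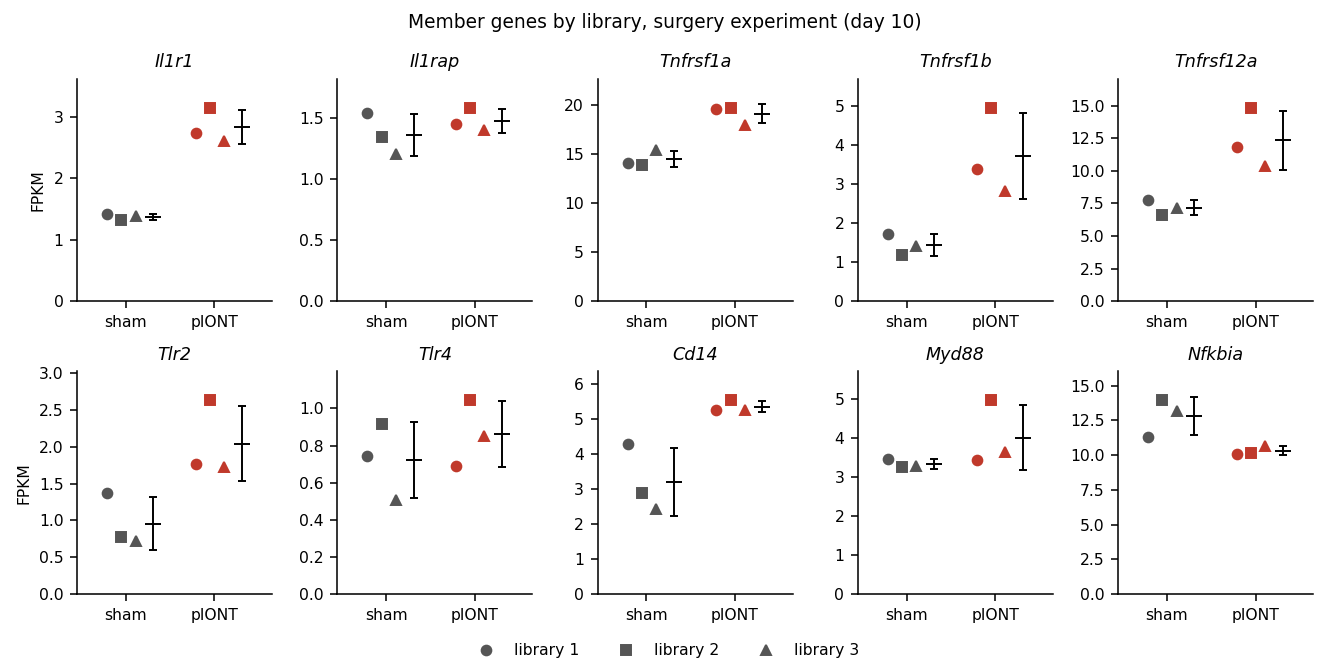
FPKM of the 10 genes in each library of the surgery experiment. Points are libraries (circle, square and triangle for library 1, 2 and 3), grey for sham and red for pIONT, and the bar beside them is the mean with the SD (n = 3). The groups do not overlap for Il1r1, Tnfrsf1a, Tnfrsf1b, Tnfrsf12a, Tlr2, Cd14 and Nfkbia.

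The surgery comparison asked how these genes differed 10 days after pIONT. Receptor genes were higher in pIONT ganglia: Tnfrsf1b, Tlr2 and Il1r1 at 2.58, 2.14 and 2.06 times the sham mean, Tnfrsf12a and Cd14 at 1.72 and 1.68 times, and Tnfrsf1a at 1.32 times. Nfkbia was lower, at 0.805 times. The shared parts Il1rap and Myd88, and Tlr4, did not pass the test. A gene is said to be called, to have risen or to have fallen when limma gave a Benjamini-Hochberg adjusted p under 0.05 over all genes of the table. By this rule 6 of the 10 rose and 1 fell, where 22.8% of all 14672 tested genes were called, 10.5% higher and 12.3% lower. The groups did not overlap in these 7 genes, 6 higher and 1 lower, a pattern held by 43.4% of tested genes, 18.7% higher and 24.7% lower. The median log2 fold change of the 10 was 0.54, beside -0.02 over all tested genes. The 10 were chosen with results of these libraries known, so these counts describe them and are not independent evidence.

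Gene positions here are those of the surgery table, for which the submitters' notes name the build GRCm39. Il1r1, on chromosome 1 at 40264240 to 40356417, was at 1.42, 1.32 and 1.38 FPKM in sham and 2.74, 3.14 and 2.61 FPKM in pIONT libraries. All pIONT libraries were far above the narrow sham range. The log2 fold change was 0.83 (SE 0.08, limma adjusted p = 0.00106), and 2.25% of tested genes had a higher one. Its partner Il1rap, on chromosome 16 at 26400454 to 26548867, was at 1.54, 1.34 and 1.20 FPKM in sham and 1.45, 1.58 and 1.39 in pIONT libraries. These ranges overlap almost fully, and the log2 fold change was 0.09 with a 95% interval of -0.13 to 0.31 (limma adjusted p = 0.527). The FPKM ratio of Il1rap to Il1r1 was 1.09, 1.01 and 0.869 in sham libraries and 0.529, 0.502 and 0.535 in pIONT libraries. The ratio was lower in every pIONT library than in every sham library. Which of these transcripts is the more abundant depends on the gene length used for FPKM. Recovered reads in sham libraries were 248, 243 and 213 for Il1r1 and 481, 439 and 330 for Il1rap. In pIONT libraries they were 447, 586 and 493 for Il1r1 and 422, 525 and 471 for Il1rap. The ratio itself was not tested.

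Among the TNF receptors, Tnfrsf1b had the largest log2 fold change of the 10. It lies on chromosome 4 at 144940033 to 144973440 and was at 1.73, 1.18 and 1.42 FPKM in sham and 3.39, 4.95 and 2.81 FPKM in pIONT libraries. The groups were apart, with pIONT 2 the highest and sham 1 the highest of the sham libraries. The log2 fold change was 1.10 (SE 0.19, limma adjusted p = 0.00893), and 0.90 without pIONT 2 (limma adjusted p = 0.0113). Tnfrsf1a, on chromosome 6 at 125326325 to 125339447, was at 14.2, 13.9 and 15.4 FPKM in sham and 19.6, 19.7 and 18.001 FPKM in pIONT libraries. Here the pIONT libraries were close together, and the log2 fold change was 0.39 (SE 0.06, limma adjusted p = 0.00554). The FPKM ratio of Tnfrsf1b to Tnfrsf1a was 0.122, 0.0844 and 0.0922 in sham and 0.173, 0.251 and 0.156 in pIONT libraries, so TNFR1 remained the more abundant transcript in every library.

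Tnfrsf12a, the TWEAK receptor on chromosome 17 at 23894419 to 23896442, was at 7.74, 6.64 and 7.15 FPKM in sham and 11.8, 14.8 and 10.4 FPKM in pIONT libraries. The groups did not overlap, and pIONT 2 was again the highest. The log2 fold change was 0.73 (SE 0.12, limma adjusted p = 0.00827), and 0.60 without pIONT 2 (limma adjusted p = 0.00801). Il1r1, Tnfrsf1a, Tnfrsf1b and Tnfrsf12a were called in all 14 alternative analyses.

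The toll-like receptor group was less firm. Tlr2, on chromosome 3 at 83743579 to 83749074, was at 1.37, 0.773 and 0.716 FPKM in sham and 1.77, 2.63 and 1.73 FPKM in pIONT libraries. Sham 1 was close to the lower pIONT libraries, and pIONT 2 was the highest. The log2 fold change was 0.82 (SE 0.20, limma adjusted p = 0.0291). Cd14 was at 4.28, 2.87 and 2.42 FPKM in sham and 5.26, 5.52 and 5.25 FPKM in pIONT libraries. The pIONT libraries were nearly equal, while sham 1 was well above the other sham libraries. The log2 fold change was 0.69 (SE 0.17, limma adjusted p = 0.0260). Without pIONT 2 neither call was kept (limma adjusted p = 0.0750 for Tlr2 and 0.0721 for Cd14), while without sham 1 both were, at log2 fold changes of 1.01 and 0.90 (limma adjusted p = 0.0182 and 0.00304). Both calls were also lost without sham 2, without sham 3 and without pIONT 1, and that of Cd14 without pIONT 3 (limma adjusted p = 0.0552 to 0.0959 over these).

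Tlr4, on chromosome 4 at 66745821 to 66848521, was at 0.742, 0.914 and 0.508 FPKM in sham and 0.690, 1.04 and 0.851 FPKM in pIONT libraries. The groups overlapped, and the log2 fold change was 0.16 with a 95% interval of -0.21 to 0.54 (limma adjusted p = 0.497). Myd88, on chromosome 9 at 119165000 to 119170477, was at 3.47, 3.25 and 3.28 FPKM in sham and 3.45, 4.97 and 3.63 FPKM in pIONT libraries. Only pIONT 2 was clearly above the sham range, and the log2 fold change was 0.22 with a 95% interval of -0.07 to 0.51 (limma adjusted p = 0.237). Of the Myd88 exon bases, 11.3% overlap Acaa1a on the opposite strand, so its values may include reads of that gene. The log2 fold change of Tlr2, 0.82, lies outside both intervals, but its own interval of 0.34 to 1.29 overlaps both. Whether these genes differ from Tlr2 was not tested.

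Nfkbia, on chromosome 12 at 55536195 to 55539432, was at 11.3, 13.9 and 13.2 FPKM in sham and 10.1, 10.2 and 10.7 FPKM in pIONT libraries. The pIONT libraries were nearly equal and lay just below sham 1. The log2 fold change was -0.29 (SE 0.08, limma adjusted p = 0.0357). The call was kept in 6 of 14 alternatives and lost without sham 2, without sham 3 and without each pIONT library (limma adjusted p = 0.0577 to 0.114), with no sign change. It was kept without sham 1, at -0.38 (limma adjusted p = 0.0140).

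**Figure D2:**
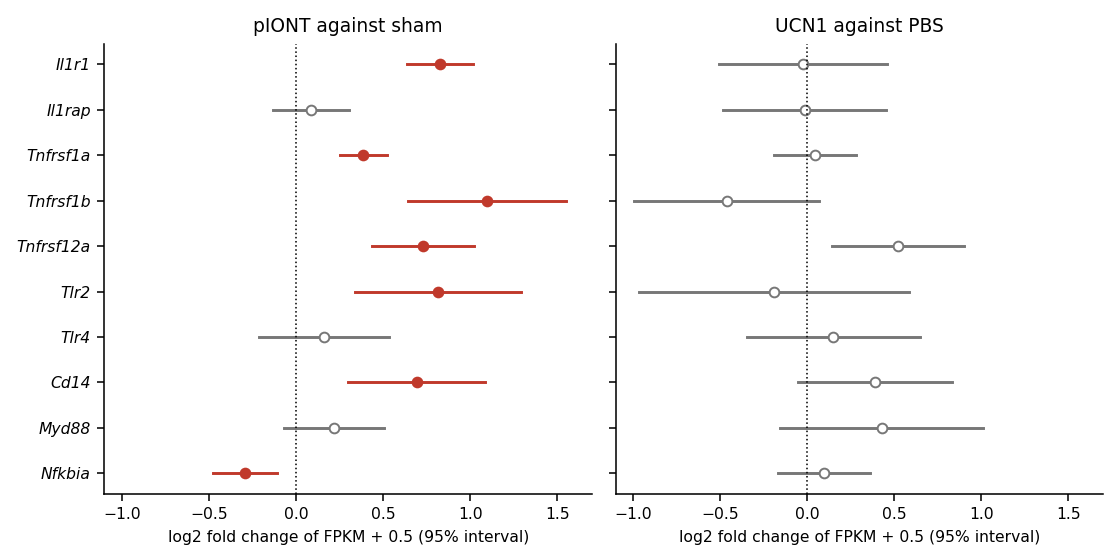
Log2 fold change on the FPKM + 0.5 scale (x axis) with its 95% interval from limma for each of the 10 genes, pIONT against sham on the left and UCN1 against PBS on the right. Filled red points have an adjusted p under 0.05 and open grey points do not: 7 genes on the left, from -0.29 for Nfkbia to 1.10 for Tnfrsf1b, and 0 on the right.

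Macrophage markers moved with several of these genes. Over all 14672 tested genes 10.5% rose and 12.3% fell, and no list count below was tested against these shares. Of 14 macrophage genes 9 rose and 0 fell in pIONT, with a median log2 fold change of 1.02. Their summed level was 314, 175 and 209 FPKM in sham 1 to 3 and 395, 818 and 355 FPKM in pIONT 1 to 3, led by Lyz2, a lysozyme of myeloid cells, and none of the 14 was at 0. The library with the highest sum in each group, sham 1 and pIONT 2, was also the highest of its group for Tnfrsf1b, Tlr2, Cd14, Il1r1 and Tnfrsf12a, and for Il1rap and Myd88, which were not called. Tnfrsf1a was highest in sham 3 and pIONT 2, Tlr4 in sham 2 and pIONT 2, and Nfkbia in sham 2 and pIONT 3. The part of macrophage number in these differences was not tested, and in whole ganglia more cells of a type and more RNA per cell cannot be told apart. Of 8 neutrophil genes 0 were called by limma, and 0 of 3 tested lymphocyte genes, with 0 and 1 at an unadjusted p under 0.05. Of all 14672 tested genes 5434 were under it. The summed fibroblast and meninges markers were also highest in pIONT 2, at 377 FPKM against 189 to 253 in sham and 238 and 239 in the other pIONT libraries, with 0 of 9 called and 1 at an unadjusted p under 0.05 by limma. Of 6 Schwann cell genes 5 fell, and of 9 neuron genes 3 rose and 4 fell. Among 6 genes of satellite glia, 2 were called higher and 1 lower, and their summed level was 2690 to 2906 FPKM in sham and 3035 to 3668 FPKM in pIONT libraries, without overlap and again highest in pIONT 2. The part of these cells in the results was not tested. The injured neuron list also moved with the groups, 6 of 6 genes higher, summing to 16.1 to 22.4 FPKM in sham and 1436 to 2405 FPKM in pIONT libraries. Its part was not tested either.

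**Figure D3:**
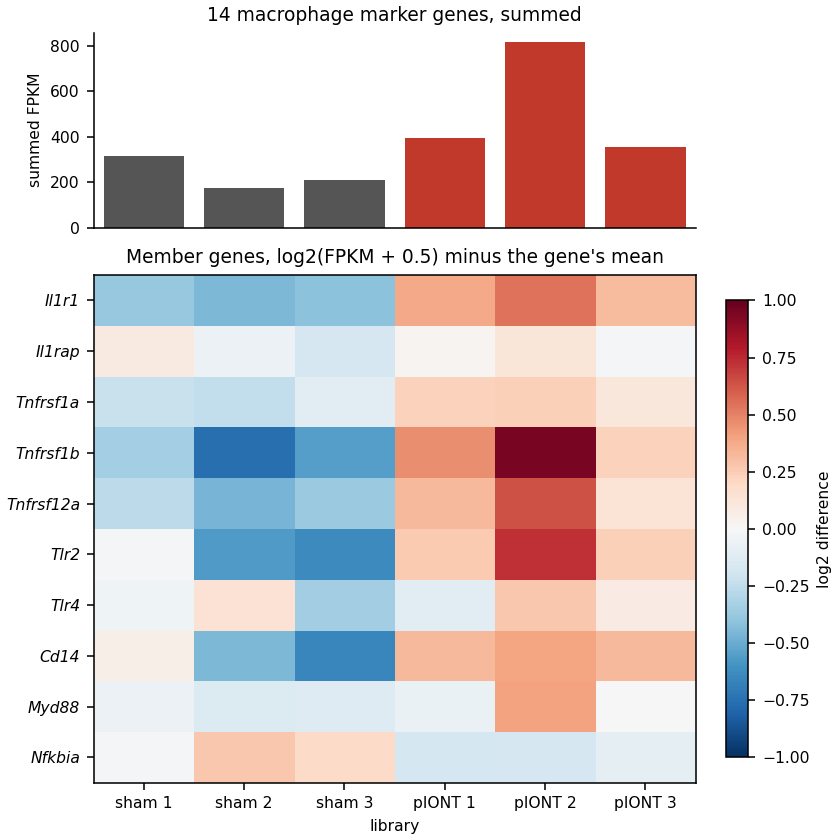
Upper panel: summed FPKM of 14 macrophage marker genes in each library, grey for sham and red for pIONT. Lower panel: log2(FPKM + 0.5) of each of the 10 genes minus its own mean over the 6 libraries, red above and blue below that mean. Sham 1 and pIONT 2 have the highest macrophage sum of their groups, 314 and 818 FPKM.

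For each called gene, the most similar profiles were sought among 13156 tested genes, with predicted genes, Rik clones and pseudogenes left out, as the smallest root mean square difference between centred log2(FPKM + 0.5) values over the 6 libraries. For Tnfrsf1b these were the chemokine receptor gene Ccr1, Tmem173, which encodes STING, and Plau (differences of 0.0665, 0.0804 and 0.0805). For Tlr2 they were Irf8, a transcription factor of myeloid cells, the receptor gene Tlr13, and Cebpa (0.0702, 0.0812 and 0.0903), and for Cd14 they were Ch25h, Adap2 and Oasl1 (0.0523, 0.0693 and 0.0847). Neighbours within 0.1 numbered 3 to 5 for these 3 genes. Il1r1 was nearest to Enho, Rab31 and Nsg1 (0.0122, 0.0270 and 0.0346), and Tnfrsf12a to Pnp, Tpm4 and Grb10 (0.0378, 0.0408 and 0.0469). Tnfrsf1a was nearest to Gpc1, Spata13 and Plekhm1 (0.01999, 0.0298 and 0.0309), and Nfkbia to B3gnt2, Kcnf1 and Macrod2 (0.0345, 0.0353 and 0.0395). Within 0.1 there were 89 neighbours for Il1r1, 47 for Tnfrsf12a, 481 for Tnfrsf1a and 717 for Nfkbia, so the measure hardly singles out those named.

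Beyond the 10 genes, 98 further genes of the same pathways were listed by role. Of these 74 were tested in the surgery experiment and 13 rose and 3 fell, or 21.6% called, which is near the 22.8% of all tested genes. The ligands were mostly low. Tnf was at 0.223, 0.0849 and 0.0759 FPKM in sham and 0.215, 0.314 and 0.206 FPKM in pIONT libraries, below the filter. Il1b was at 0.459, 0.474 and 0.783 FPKM in sham and 0.718, 0.701 and 0.655 FPKM in pIONT libraries, well within the sham range (limma adjusted p = 0.423). Of 11 ligand genes 5 were below the filter, Il1a and the antagonist gene Il1rn among them, and 0 of the 6 tested were called by limma, with 2 at an unadjusted p under 0.05. The ligands with the highest levels, the alarmin Hmgb1 and Tnfsf12, which encodes TWEAK, had log2 fold changes of 0.37 and 0.17 (limma adjusted p = 0.0971 and 0.0613). Both were higher in all pIONT libraries than in all sham libraries, as were 18.7% of all tested genes. For Hmgb1 the gap was small, with sham 1 at 8.48 FPKM and pIONT 3 at 8.56 FPKM. Both ligands were called in 1 of 14 alternatives each. These were the fit without sham 1 for Hmgb1 (limma adjusted p = 0.0468) and median-of-ratios scaling for Tnfsf12 (limma adjusted p = 0.0412). Tnfsf12 shares 48.3% of its exon bases with a read-through gene on the same strand.

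Among 14 tested further receptors and co-receptors 5 rose and 0 fell, with a median log2 fold change of 0.30. This is 35.7% called beside 22.8% of all tested genes, a difference that was not tested. Tlr13 and Tlr7, endosomal receptors of RNA, rose by 0.81 and 0.71 on the log2 scale (limma adjusted p = 0.0309 and 0.0278). They were also highest in sham 1 and pIONT 2 of their groups, at 0.763 and 1.71 FPKM for Tlr13 and 0.742 and 1.57 FPKM for Tlr7. The lymphotoxin beta receptor gene Ltbr rose by 0.34 and the death receptor gene Tnfrsf21 by 0.19 (limma adjusted p = 0.00543 and 0.0172). The Tnfrsf21 call was lost without sham 1, 2 or 3 (limma adjusted p = 0.0517 to 0.0616). It was also lost when rescaled to TPM and with the replicate block (limma adjusted p = 0.0516 and 0.0682). Ly96 encodes MD-2, the partner of TLR4 on the cell surface, and is named after a look at its values. It was at 1.00, 1.50 and 1.62 FPKM in sham and 2.15, 2.99 and 2.05 FPKM in pIONT libraries. Its groups did not overlap (log2 fold change 0.63, limma adjusted p = 0.0380), with 18.7% of all tested genes apart in this direction. Those of Tlr4 itself overlapped, and whether Ly96 and Tlr4 differ was not tested. Without sham 1, sham 2, sham 3, pIONT 1 or pIONT 2 the Ly96 call was lost (limma adjusted p = 0.0592 to 0.0947), and the calls of Tlr7 and Tlr13 without sham 2, sham 3, pIONT 1 or pIONT 2 (limma adjusted p = 0.0598 to 0.0972). With the replicate block Tlr7 and Tlr13 were not called (limma adjusted p = 0.0729 and 0.0728). With no filter on low values Ly96, Tlr7 and Tlr13 were not called (limma adjusted p = 0.0573 to 0.0805).

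Of 28 tested adaptors and kinases 1 rose and 2 fell, or 10.7% called beside 22.8% of all tested genes, a difference that was not tested. Tab3, a partner of the kinase TAK1, was at 8.13 ± 0.0980 FPKM in sham and 5.38 ± 0.821 FPKM in pIONT (SD, n = 3). Its log2 fold change of -0.56 (limma adjusted p = 0.0088) was called in all 14 alternatives. Tab1, another TAK1 partner, had a log2 fold change of -0.19 with limma adjusted p = 0.0460, and leaving out any 1 of the 6 libraries ended its call (limma adjusted p = 0.0510 to 0.135). Irak3, which encodes a brake on MYD88 signalling, rose by 0.53 (limma adjusted p = 0.0183), from a mean of 0.902 to 1.53 FPKM. It was not called without sham 2, without sham 3 or with the replicate block (limma adjusted p = 0.0579, 0.0519 and 0.0589). Of 16 NF-kB subunits and regulators 5 rose and 1 fell, or 37.5% called beside the same 22.8%, again not tested. Tnip2, which encodes an inhibitor of NF-kB activation, rose by 0.56 and Bcl3, an atypical IkB protein gene, by 0.35 (limma adjusted p = 0.0019 and 0.00796). Tollip, a regulator of toll-like receptor signalling, rose by 0.21 and the subunit gene Rela by 0.31 (limma adjusted p = 0.0122 and 0.0293). Nfkbiz rose by 0.35 and Cyld, a deubiquitinase gene, fell by 0.22 (limma adjusted p = 0.0449 and 0.0462). Both are named after a look at their values, and leaving out any 1 of the 6 libraries ended either call (limma adjusted p = 0.0529 to 0.135). Tnip2 and Bcl3 were called in all 14 alternatives, Tollip in 13 (not without sham 3, limma adjusted p = 0.0532) and Rela in 8. The Rela call was lost without sham 1, 2 or 3 and without pIONT 1 or 2 (limma adjusted p = 0.0538 to 0.0947).

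Of the 18 listed target genes of NF-kB 8 were below the filter, Il6, Cxcl1, Cxcl2, Ptgs2 and Nos2 among them. Of the 10 tested 2 rose and 0 fell, or 20% called, which is near the 22.8% of all tested genes. Csf1, the gene of the macrophage growth factor, was at 3.41, 2.31 and 2.58 FPKM in sham and 24.5, 26.3 and 18.6 FPKM in pIONT libraries. This was the largest log2 fold change of the 74 tested further genes (log2 fold change 2.85, SE 0.16, limma adjusted p = 9.8e-05) and was called in all 14 alternatives. The chemokine gene Cxcl10 was at 2.35, 0.927 and 1.47 FPKM in sham and 3.72, 3.33 and 8.29 FPKM in pIONT libraries. Its spread was wide, with pIONT 3 the highest (log2 fold change 1.38, limma adjusted p = 0.0347), and the call was lost without sham 2, sham 3, pIONT 1 or pIONT 3 (limma adjusted p = 0.0508 to 0.0998). Of its exon bases, 5.91% are shared with an opposite-strand gene. The other 8 tested targets, with Icam1, Vcam1, Sod2 and Ccl2 among them, were not called.

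**Figure D4:**
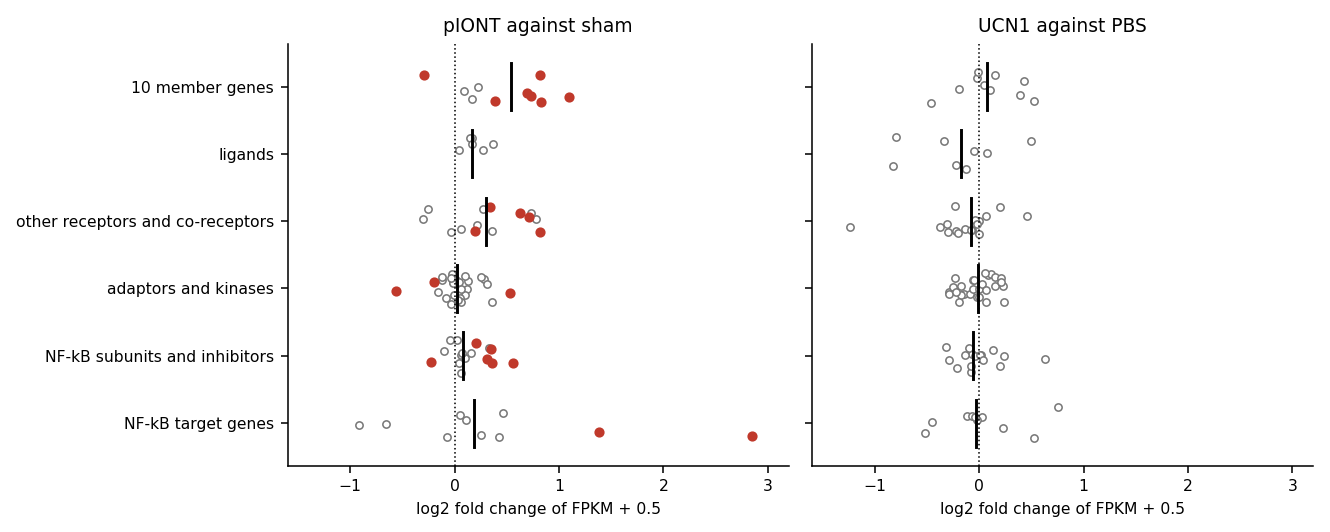
Log2 fold change (x axis) of the 10 genes (top row) and of each tested further gene by role (other rows), pIONT against sham on the left and UCN1 against PBS on the right. Points are genes, filled red with an adjusted p under 0.05, and the black bar is the median of the row. In the left panel Csf1 lies at 2.85 and Cxcl10 at 1.38, and the right panel has 0 filled points.

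The injection comparison asked what changed 6 hours after UCN1. None of the 10 genes was called, where 0.601% of all 16139 tested genes were. By limma 1 of the 10, Tnfrsf12a, had an unadjusted p under 0.05, as had 2113 of all 16139 tested genes. The smallest limma adjusted p among the 10 was 0.249. The groups did not overlap in 5 of the 10, 4 higher and 1 lower, a pattern held by 45.5% of tested genes, 21.8% higher and 23.7% lower. Levels in this table rest on another definition of gene length and cannot be set beside those above. The median log2 fold change of the 10 was 0.07.

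Tnfrsf12a was at 9.66 and 7.75 FPKM in PBS and 11.3 and 14.1 FPKM in UCN1 libraries. Both UCN1 libraries were above both PBS libraries, with a log2 fold change of 0.52 and a 95% interval of 0.14 to 0.90 before adjustment (limma adjusted p = 0.249). Over the 12 alternatives it stayed positive, from 0.37 to 0.68, and was called in 0 of them. Tnfrsf1b was at 2.89 and 2.38 FPKM in PBS and 1.96 and 1.59 FPKM in UCN1 libraries. Here both UCN1 libraries were the lower ones, with a log2 fold change of -0.46 and an interval of -0.99 to 0.07 (limma adjusted p = 0.437). Whether its difference is unlike that after pIONT was not tested. The experiments differ in treatment, time and number of libraries.

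Cd14 was at 3.45 and 2.76 FPKM in PBS and 4.11 and 4.29 FPKM in UCN1 libraries, apart but not called (log2 fold change 0.39, interval -0.05 to 0.83, limma adjusted p = 0.432). Myd88 was at 5.82 and 3.52 FPKM in PBS and 5.24 and 7.50 FPKM in UCN1 libraries, with overlap and an interval of -0.16 to 1.01 (limma adjusted p = 0.512). Nfkbia, which NF-kB induces within hours, was at 17.2 and 15.6 FPKM in PBS and 17.9 and 17.3 FPKM in UCN1 libraries. The UCN1 libraries lay barely above the PBS libraries, and the interval of -0.17 to 0.36 does not reach the 0.52 of Tnfrsf12a. The Tnfrsf12a interval of 0.14 to 0.90 overlaps it, and whether these genes differ was not tested. Tnfrsf1a was the highest of the 10 in this table too, at 55.7 and 48.2 FPKM in PBS and 52.5 and 54.6 FPKM in UCN1 libraries, with an interval of -0.19 to 0.28.

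Il1r1 was at 4.18 and 3.37 FPKM in PBS and 4.24 and 3.18 FPKM in UCN1 libraries, nearly the same range in both groups. Its log2 fold change was -0.03 with an interval of -0.51 to 0.46 (limma adjusted p = 0.9755). Il1rap was at 8.54 and 5.56 FPKM in PBS and 6.72 and 6.94 FPKM in UCN1 libraries, so the PBS libraries span the others. Its interval was -0.48 to 0.45 on the log2 scale (limma adjusted p = 0.988). Tlr2 was at 0.761 and 0.642 FPKM in PBS and 0.7005 and 0.422 FPKM in UCN1 libraries, on 21 to 36 reads. Tlr4 was at 2.19 and 2.12 FPKM in PBS and 2.65 and 2.25 FPKM in UCN1 libraries, slightly higher in both. Their intervals were -0.97 to 0.59 and -0.35 to 0.65.

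**Figure D5:**
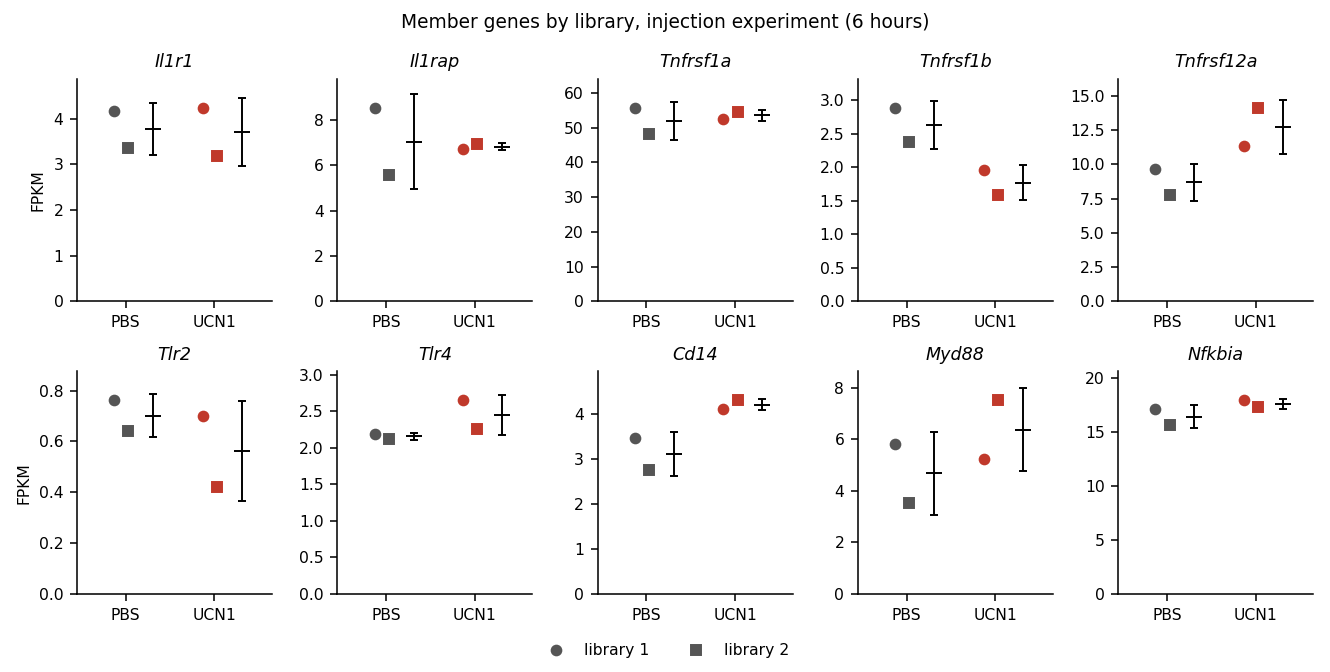
FPKM of the 10 genes in each library of the injection experiment. Points are libraries (circle and square for library 1 and 2), grey for PBS and red for UCN1, and the bar beside them is the mean with the SD (n = 2). Both UCN1 libraries lie above both PBS libraries for Tnfrsf12a, Tlr4, Cd14 and Nfkbia and below them for Tnfrsf1b.

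Macrophage markers did not separate the injection groups, with sums of 145 and 126 FPKM in PBS and 125 and 135 FPKM in UCN1 libraries, and limma called 0 of 14, with 2 at an unadjusted p under 0.05. Other lists did differ: 3 of 9 fibroblast and meninges genes and 3 of 4 tested pituitary genes fell, and 1 of 4 tested injured neuron genes, Atf3, rose. Over all 16139 tested genes 0.297% fell and 0.304% rose. Injured neuron markers summed to 18.8 and 14.8 FPKM in PBS and 32.9 and 32.9 FPKM in UCN1 libraries. Satellite glia markers summed to 4409 and 4184 FPKM in PBS and 4715 and 4887 FPKM in UCN1 libraries, with 0 of 6 called by limma and 3 at an unadjusted p under 0.05. The part of these cells in the values of the 10 genes was not tested. Of the further pathway genes 79 were tested and 0 were called, with 5 at an unadjusted p under 0.05 in limma. Of all 16139 tested genes 2113 were under it. Bcl3 is named after a look at its values, as is Ly96. Bcl3 was at 17.7 and 18.6 FPKM in PBS and 27.3 and 29.3 FPKM in UCN1 libraries. The groups were apart (log2 fold change 0.63, SE 0.11, limma adjusted p = 0.0573), as were those of 21.8% of tested genes in this direction. Bcl3 was called at a filter of 2 FPKM (limma adjusted p = 0.0245). Of the Bcl3 exon bases, 6.5% overlap a gene on the opposite strand. Ly96 was at 3.098 and 3.56 FPKM in PBS and 1.32 and 0.946 FPKM in UCN1 libraries (log2 fold change -1.24, SE 0.24, limma adjusted p = 0.0915). Of the ligands, Il1a and Tnf were below the filter, and Hmgb1 and Il33 had the highest levels of those tested, with log2 fold changes of -0.22 and 0.07. Of the most abundant genes of the other roles, Tnfrsf21 and Ltbr were at -0.000196 and -0.24, Rbck1 and Tab2 of the kinase modules at 0.03 and -0.0033, Tollip and Tnip1 at 0.03 and 0.01, and the target genes Sod2 and Ier3 at -0.07 and 0.23 on the log2 scale (limma adjusted p = 0.497 to 1.00).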

How the data were processed

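The authors deposited 1 table of FPKM values per experiment. Per the submitters' processing notes, STAR, HTSeq, DESeq2 and the build GRCm39 were used, with no role or version given. Strandedness of the libraries (NEBNext Ultra II, per the labels' protocols) is not stated in those sources. Of gene identifiers found in GENCODE vM21 (GRCm38), 99.4% in the injection table and 1.99% in the surgery table had the same start and end, so the former is in GRCm38 coordinates and the latter is printed as deposited. Symbols came from that annotation, by identifier.

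Genes with a mean of at least 0.5 FPKM over an experiment were tested within each table with limma 3.58.1 (R 4.3.3) on log2(FPKM + 0.5). The prior variance followed the mean level, and p-values were adjusted over all tested genes at a threshold of 0.05. Fold changes on this scale understate those of low genes. Reads were recovered from FPKM and exon lengths (union of exons for the surgery table, mean transcript length for the injection table), within 0.1 reads for values up to 20 reads. Whole reads made up 92.6% to 93.1% and 98.8% to 99.0% of such values. Replicates differed beyond sampling noise (chi-square per degree of freedom 5.89 to 15.0), so none was a duplicate.

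The 10 genes, the lists and the tests were chosen with earlier results of these data known. Named beside the 10 were up to 4 called genes per list by smallest p, or else the 2 with the highest level. Alternatives changed the pseudocount, filter, scaling, library weights, replicate block or 1 library.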

Additional observations from a re-analysis of the deposited data

How the results depend on the processing

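Over the 14 alternatives of the surgery comparison, each of the 10 genes kept its direction. Of 7 genes called, 4 were called with no filter on low values, as without sham 2, sham 3, pIONT 1 or pIONT 2, and leaving out each library in turn gave 4 to 7. Of 16 further pathway genes called, 10 were with no filter, and 5 to 16 with a library left out. Of all genes, 1689 to 2969 were called with a library left out, the fewest without sham 3, against 3344. With no filter the calls lost among the 10 were Tlr2, Cd14 and Nfkbia (limma adjusted p = 0.0627, 0.0546 and 0.0641), and with median-of-ratios scaling Nfkbia (0.0561). The cause of the lost calls was not tested. Pseudocounts of 0.1 and 1, TPM and array weights left the 7 calls in number, and a filter of 2 FPKM removed Tlr2, Tlr4 and Il1rap from the test. Deviations of same-numbered libraries had correlations over genes of -0.06, -0.20 and 0.07 in the surgery experiment and 0.04 in the injection experiment. These cannot decide whether the numbers pair libraries, since deviations were taken from the mean of each small group. The labels do not say it either. With the replicate block 5 of the 10 genes, 11 further genes and 2085 of all genes were called in the surgery experiment, Tlr2 and Nfkbia losing their calls (limma adjusted p = 0.0566 and 0.0520).

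In the injection comparison, 0 of the 10 genes were called in any alternative. With the replicate block 2 further pathway genes, Bcl3 and Ly96, and 260 of all genes were called. At a filter of 2 FPKM 1 further gene, Bcl3, and 155 of all genes were called, and with no filter 2 of all genes, against 97. With a library left out 5 to 38 were called, where the lone sample is assumed to vary like the other group. Genes with small differences changed sign, none called. With a library left out, log2 fold changes ran from -0.21 to 0.16 for Il1r1, -0.30 to 0.27 for Il1rap, -0.058 to 0.15 for Tnfrsf1a and -0.38 to 0.000287 for Tlr2. They ran from -0.11 to 0.26 for Il33, -0.091 to 0.091 for Tnfrsf21, -0.059 to 0.11 for Rbck1, -0.095 to 0.088 for Tab2, -0.068 to 0.083 for Tnip1 and -0.15 to 0.0059 for Sod2. With median-of-ratios scaling Tnfrsf21 was at 0.012 and Tab2 at 0.0092, and with TPM Rbck1 was at -0.0024 and Tnip1 at -0.022. Tlr2 had the fewest reads of the 10 genes in each injection library, 21 to 36. Differences within the intervals given were not excluded by these libraries, and the smallest detectable difference was not worked out. What depth and the number of libraries each contribute was not tested.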
